A study of Bos taurus and Ovis aries and Capra hircus with 27 samples.

Results

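Goat gene models whose protein carries the epidermal growth factor (EGF) motif at least 3 times were described across heart, liver and kidney. An EGF domain is a small module held together by disulfide bonds between cysteines. The motif used here covers its latter portion, a run of cysteine, any residue, cysteine, 2 residues, glycine or proline, an aromatic residue, 4 to 8 residues and cysteine. Of 22131 goat ids in the expression table, 18215 had a protein and 17138 of these carried no copy suffix. The protein file used here ends within an entry, so ids without a protein in it could not be searched and the members may be fewer than the genome holds. At least 3 non-overlapping matches were found in 59 models. None of these held the trypsin signature used as an exclusion, 3 were removed because they held the cadherin motif at least 2 times, and 56 models remained.

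Messenger RNA was sequenced from strand-specific libraries, 27 in all from 3 species and 3 tissues. The 9 goat libraries come from heart, liver and kidney, with 3 libraries a tissue, of goats of the strain named indigenous, about 3 years old. All 3 groups share strain and age, and the labels name no treatment. The study's methods describe the animals as unrelated adult females. Libraries of the same number were read as tissues of the same animal, so the tissues are not independent groups of animals. The values were fragments per kilobase of transcript, scaled to the mapped reads of a library (FPKM), so that levels of different genes can be set side by side. The deposited ids carry no gene names, so the labelled tissues were not checked against defining markers and no model was given a name.

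Proteins with repeated EGF domains work outside the cell. Fibrillins and latent TGF-beta binding proteins form the microfibrils of connective tissue, and fibulins and related proteins bind to them. Notch receptors read their ligands on neighbouring cells through long rows of EGF domains, and receptors of the low density lipoprotein (LDL) receptor family take up lipoproteins and other cargo, in liver and kidney among other tissues. A further group is made in the liver for the blood, the vitamin K-dependent proteins of coagulation. Many EGF domains bind calcium, which stiffens the joints between neighbouring domains.

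Of the 56 models, 13 held exactly 3 matches, 30 held 4 to 9 and 13 held 10 or more. The median was 7 matches and the highest number 37, in GOAT_ENSBTAP00000035493, a protein of 2866 residues on scaffold 259 (1488306 to 1760964, minus strand). The proteins had a median of 1154 residues and ranged from 378 to 5555, against a median of 326 residues for all models with a protein. Cysteine made up 7.85% of residues in the median member and 2.09% in the median of all models, a difference that follows in part from the motif itself. The models were also long in the genome. Their median span was 84.6 kb against 10.9 kb for all models, and 25 spanned more than 100 kb. They lay on 55 scaffolds, and the only pair on one scaffold was GOAT_ENSP00000364393 (scaffold 1362, 1448 to 49040, minus strand) and GOAT_ENSP00000410674 (133934 to 155934, minus strand).

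Other motifs in the proteins, which the choice of members did not use, set apart several kinds of protein. The start of a calcium-binding EGF domain was found in 34 of 56 members (60.7%) and in 78 of the 18215 models with a protein (0.428%). The integrin-binding triplet of arginine, glycine and aspartate was found in 14 members (25.0%) against 6.40% of all models, and a hydrophobic stretch long enough to span a membrane in 28 of 56 against 29.0%. Longer proteins offer more positions for any motif, and the shares were not matched for length. Runs of 3 cysteines at 3 or more places, a mark of the domain that fibrillins and latent TGF-beta binding proteins share, were found in 4 members. An ankyrin motif, known from the inner part of Notch receptors, was found in 3 members with 19 to 27 EGF matches. The DSL motif of Notch ligands was found in 2 members, and these were the only 2 of 18215 models that held it. At least 2 beta-propeller motifs and at least 2 class A repeats, the combination of the LDL receptor family, were found in 5 members, and the Gla motif of the vitamin K-dependent proteins in 1. Of the rest, 17 held at least 2 calcium-binding starts and 24 held none of these combinations.

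**Figure D1:**
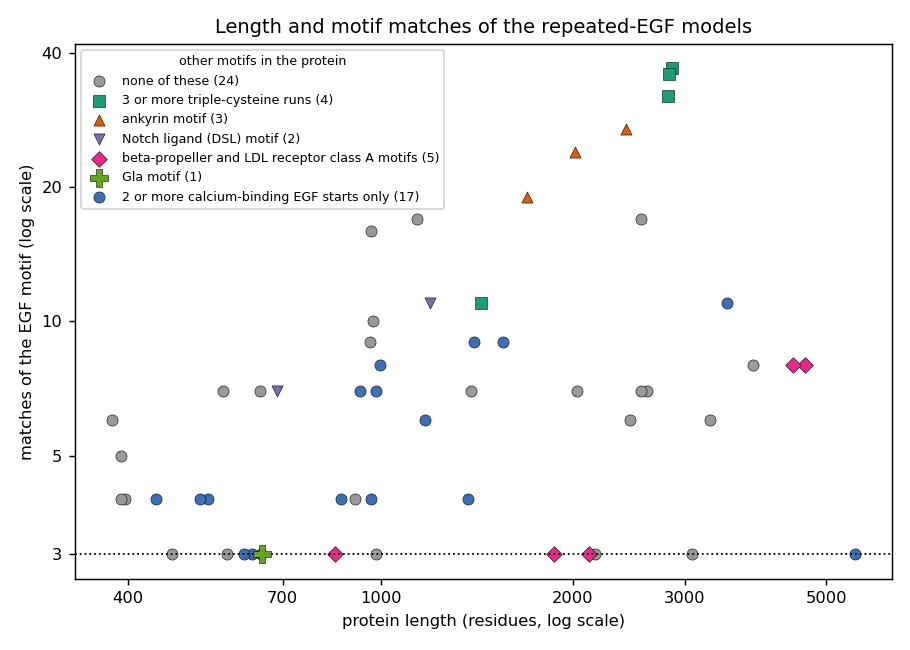
Protein length in residues (horizontal axis, log scale) and matches of the EGF motif (vertical axis, log scale) for the 56 models, with colour and shape for the other motifs found in the protein. The dotted line marks the minimum of 3 matches. The 3 triangles (ankyrin motif) and 3 of the 4 squares (runs of 3 cysteines) lie at the top, while the diamonds (LDL receptor motifs) reach the greatest lengths with at most 8 matches, apart from 1 model of 5555 residues.

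The proteins resembled each other in small groups. At an identity of at least 40% over at least 60% of the shorter protein, 27 members fell into 10 groups of 2 to 4 and 29 stood alone. The highest identity in any blastp alignment of a pair was 69.3%, so no pair was a near-identical copy. The gene models were incomplete in part: 40 of the 56 proteins did not begin with methionine, and 17 held unknown residues. A missing stretch can hide further matches, and the counts of matches are therefore lower limits.

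Of the 56 models, 37 exceeded 0.5 FPKM in at least 3 of the 9 libraries and were tested (66.1%, against 61.6% of all goat ids). Of the 19 others, 2 were listed at 0 in all 9 libraries (GOAT_ENSP00000205143 and goat_GLEAN_10020808), 10 more never exceeded 0.5 FPKM, and 7 exceeded it in 1 or 2 libraries. The highest value among the untested was 5.59 FPKM, for GOAT_ENSP00000274473 in kidney 1. All 9 libraries exceeded 0.5 FPKM for 21 members (37.5%), against 43.6% of all ids. Levels were moderate: 23 members exceeded 10 FPKM in at least 1 library and only 2 exceeded 50. The members with exactly 3 matches, the least that the rule admits, had median tissue means of 2.55, 0.696 and 2.70 FPKM in heart, liver and kidney. The 29 models with exactly 2 matches, just outside it, had 0.817, 1.84 and 1.67.

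More members were above 0.5 FPKM in kidney (36.7 ± 3.06, SD, n = 3) than in heart (32.3 ± 2.08) and liver (28.0 ± 1.73). The kidney and heart numbers were 65.5% and 57.7% of the 56, against 57.7% and 53.3% of all ids, and the liver number was below the 52.8% of all ids. Under median ratio scaling the mean numbers were 34.3 in kidney, 33.0 in heart and 28.3 in liver. The members took 0.0597% ± 0.0058 of the summed FPKM in kidney, 0.0453% ± 0.0077 in liver and 0.0371% ± 0.0033 in heart. In liver 3 models made up 62.1% of the members' FPKM, against 31.1% in heart and 29.6% in kidney. With 3 libraries a tissue an exact permutation test cannot go below p = 0.10, and no test was made on these summaries. In bulk tissue fewer cells of a type and less RNA per cell cannot be told apart, and this holds for every level given here.

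**Figure D2:**
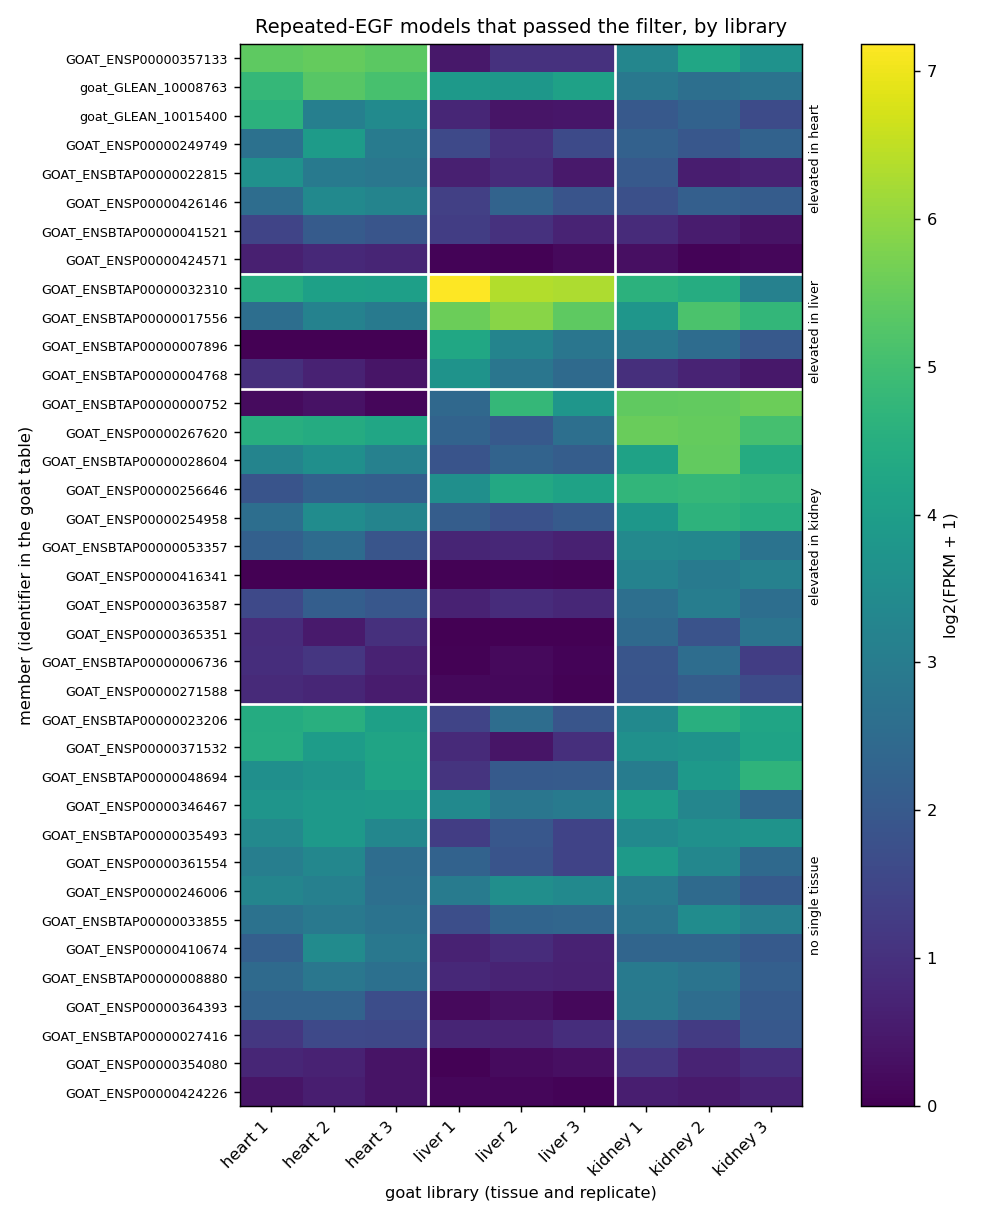
Levels of the 37 tested models (rows) in the 9 libraries (columns), as log2(FPKM + 1) on a colour scale. Dark colours are low values and bright colours high ones. The liver columns are dark for most rows. By the tissue mean, 5 rows are brightest there. They are those of the 4 models called higher in liver than in both other tissues, and that of GOAT_ENSP00000246006, which was not so called.

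The libraries of one tissue correlated at r = 0.918 to 0.985 across genes, which are not independent replicates. The summed FPKM was 808954 to 828807 in heart, 574638 to 619613 in liver and 591079 to 648510 in kidney, so the deposited values are not on one common total. The median tested gene was at 0.10 in heart minus liver, -0.55 in heart minus kidney and -0.69 in liver minus kidney on the log2(FPKM + 1) scale. Differences of members are therefore given beside these medians. Fold changes on this scale understate the change of genes with low values. No sequencing depth was given with the values, and no counting interval could be formed.

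Heart and liver differed in most members. Of the 37 tested, 32 passed an adjusted p of 0.05 in limma's moderated test (86.5%, against 49.2% of the 13634 genes tested). Of these, 26 were higher in heart (70.3%, against 29.6% of all genes) and 6 were higher in liver (16.2%, against 19.6%). The median member was 1.08 higher in heart and the median gene 0.10, and 29 of the 37 lay above the median of all genes. The libraries of heart and liver did not overlap in 36 members (97.3%, against 58.5% of all genes). The 6 members higher in liver were GOAT_ENSBTAP00000007896, GOAT_ENSBTAP00000000752, GOAT_ENSBTAP00000017556, GOAT_ENSBTAP00000032310, GOAT_ENSBTAP00000004768 and GOAT_ENSP00000256646. With genes scaled to a common median ratio instead, 31 of 36 tested members passed (86.1%, against 54.3% of all genes), 25 of them higher in heart (69.4%, against 27.2%) and 6 higher in liver (16.7%, against 27.2%).

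Liver and kidney also differed in most members. The test was passed by 31 (83.8%, against 65.0% of all genes), 25 of them higher in kidney (67.6%, against 51.6%) and 6 higher in liver (16.2%, against 13.4%). The median member was 1.43 lower in liver and the median gene 0.69 lower. The libraries did not overlap in 30 members (81.1%, against 67.2% of all genes). Under median ratio scaling, where the median gene lay at -0.00, 25 of 36 passed (69.4%, against 52.0% of all genes), 18 higher in kidney (against 25.0%) and 7 higher in liver (19.4%, against 26.9%), and the median member was 0.92 lower in liver.

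Heart against kidney gave 21 members that passed (56.8%, against 63.2% of all genes). The higher level was in heart for 8 of them (21.6%, against 17.9%) and in kidney for 13 (35.1%, against 45.3%). The median member lay at -0.15 and the median gene at -0.55. The direction of most calls in this comparison depended on scaling, while the members' place beside the median gene did not. As deposited, 24 of the 37 lay above the median of all genes. Under median ratio scaling 20 of 36 passed (55.6%, against 57.9% of all genes), 13 of them higher in heart (36.1%, against 29.2%) and 7 higher in kidney (19.4%, against 28.7%). The median member then lay at 0.31 and the median gene at -0.03, and 23 of the 36 lay above it. The libraries as deposited did not overlap in 21 members (56.8%, against 71.8% of all genes).

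**Figure D3:**
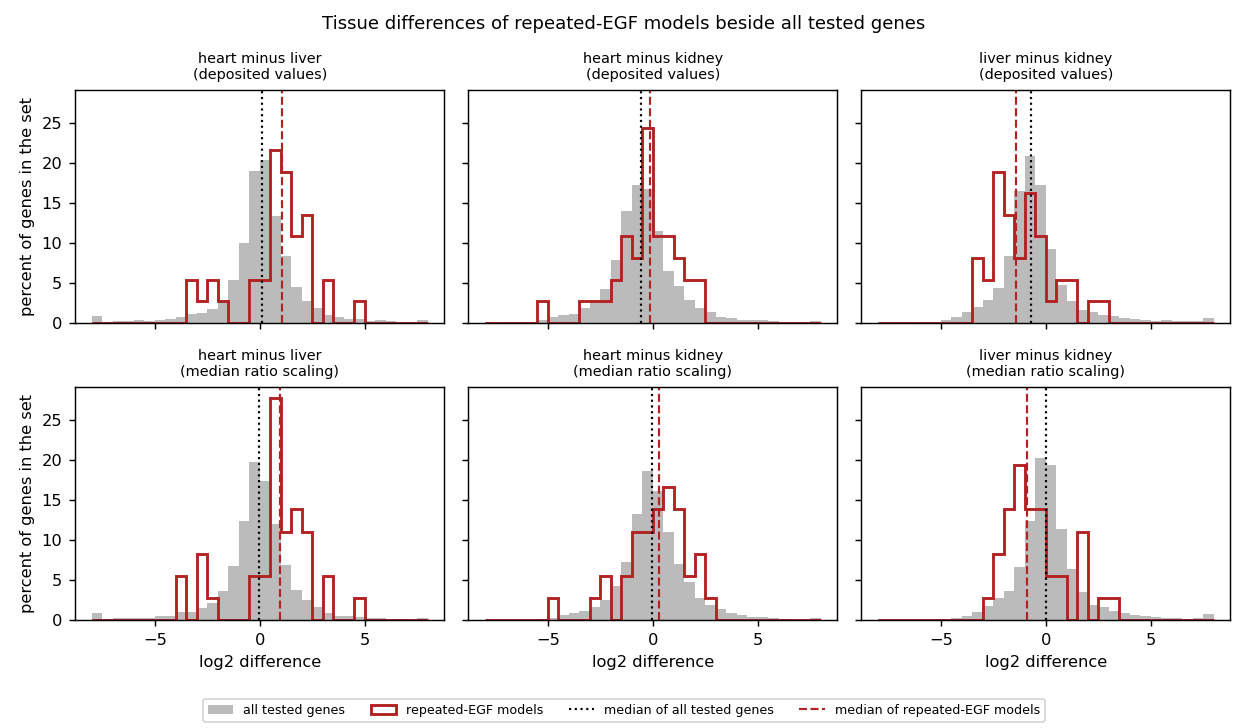
Percent of genes in bins of the log2 difference between tissues, for the tested models with repeated EGF motifs (red outline) and for all tested genes (grey), with the median of each set as a vertical line. In the upper row (deposited values) and the lower row (median ratio scaling) the members lie to the right of all genes in heart minus liver, at medians of 1.08 and 0.95, and to the left in liver minus kidney, at -1.43 and -0.92. Genes beyond 8 in either direction are counted in the outermost bins.

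Of the 37 tested, 36 passed in at least 1 of the 3 comparisons (97.3%, against 86.3% of all genes) and 15 passed in all 3 (40.5%, against 16.4%). The exception was GOAT_ENSP00000346467, a model with 11 EGF matches and runs of 3 cysteines, which had 12.5, 13.8 and 14.1 FPKM in heart, 9.69, 6.02 and 6.77 in liver and 14.7, 8.79 and 4.42 in kidney. Members that passed as higher in one tissue than in each of the others are called elevated there. By this rule 8 members were elevated in heart (21.6%, against 14.5% of all tested genes), 4 in liver (10.8%, against 9.59%) and 11 in kidney (29.7%, against 34.2%). Under median ratio scaling the numbers were 11, 4 and 3 (30.6%, 11.1% and 8.33%), against 19.7%, 15.7% and 16.3% of all genes. All 8 heart and 4 liver members were again among them, while of the 11 kidney members 3 were, GOAT_ENSP00000416341, GOAT_ENSP00000365351 and GOAT_ENSP00000271588.

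**Figure D4:**
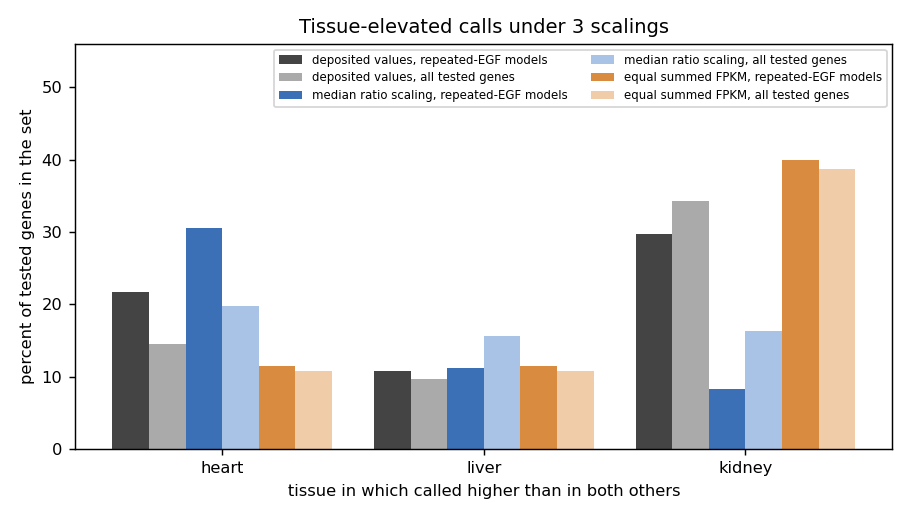
Percent of tested models with repeated EGF motifs called higher in one tissue than in both others, for the deposited values and 2 other scalings. The percent of all tested genes so called is drawn beside each. As deposited, the heart and liver bars of the models stand for 8 and 4 of 37. The kidney bar stands for 11 of 37 as deposited and 3 of 36 under median ratio scaling. It stands for 14 of 35 when libraries are scaled to equal summed FPKM. Under that scaling 10.7%, 10.7% and 38.6% of all genes are so called in heart, liver and kidney.

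One of the models with the runs of 3 cysteines known from fibrillins and latent TGF-beta binding proteins was GOAT_ENSP00000346467, described above. Its means were 13.5, 7.49 and 9.30 FPKM in heart, liver and kidney. GOAT_ENSBTAP00000035493, with 37 EGF matches, had 9.38, 13.4 and 8.96 FPKM in heart, 1.46, 2.83 and 1.73 in liver and 9.59, 11.2 and 12.0 in kidney. Every heart and kidney library lay above every liver library, while heart and kidney overlapped. Heart exceeded liver by 1.95 ± 0.23 (SE, limma adjusted p = 9.0e-05), liver minus kidney was -2.01 ± 0.23 (adjusted p = 6.9e-05), and heart minus kidney was -0.06 ± 0.23 (adjusted p = 0.852).

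The 2 models most like it in sequence were far lower. GOAT_ENSP00000424571 (scaffold 1031, 633188 to 861622, plus strand), with 36 matches, had 0.552, 0.780 and 0.680 FPKM in heart, 0.0562, 0.0200 and 0.1302 in liver and 0.238, 0.0467 and 0.0990 in kidney. Its heart libraries lay above all others, at levels below 1 FPKM. It exceeded 0.5 FPKM in heart alone and so entered the test only through the tissue where it is high, and its difference is given as a description. GOAT_ENSBTAP00000035484, with 32 matches, was not tested and reached its highest value, 0.688 FPKM, in liver 1. The 3 proteins shared 59.6 to 67.9% identity, so related proteins of this kind stood at mean heart levels of 10.6, 0.671 and 0.0311 FPKM.

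The 3 models with the ankyrin motif, known from Notch receptors, all passed as higher in kidney than in liver (against 51.6% of all genes). They differed in where they were low. GOAT_ENSP00000256646 (27 EGF matches, scaffold 659, 434564 to 557001, plus strand) had 2.66, 3.63 and 3.40 FPKM in heart, 10.9, 19.3 and 16.7 in liver and 25.4, 26.4 and 25.1 in kidney. It was the only one of the 3 that was lowest in heart, at -1.95 ± 0.22 against liver (adjusted p = 7.02e-05) and -2.66 ± 0.22 against kidney (adjusted p = 8.54e-06). Its liver minus kidney difference of -0.71 ± 0.22 (adjusted p = 0.018) lay close to that of the median gene and was 0.14 under median ratio scaling (adjusted p = 0.525). Without kidney 2 it was -0.69 (adjusted p = 0.0555).

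GOAT_ENSBTAP00000053357 (24 matches, scaffold 224, 425667 to 459329, plus strand) was lowest in liver, with 3.57, 4.74 and 2.75 FPKM in heart, 0.678, 0.742 and 0.570 in liver and 9.36, 9.09 and 5.64 in kidney. None of these ranges overlapped. Liver minus kidney was -2.41 ± 0.23 (adjusted p = 2.22e-05) and heart minus liver 1.47 ± 0.23 (adjusted p = 0.00057). Heart minus kidney was -0.94 ± 0.23 (adjusted p = 0.0058), and -0.36 under median ratio scaling (adjusted p = 0.243). GOAT_ENSP00000410674 (19 matches) had 3.51, 10.003 and 6.32 FPKM in heart, 0.619, 0.892 and 0.605 in liver and 4.06, 4.06 and 3.13 in kidney. It too was higher in heart and kidney than in liver, and its heart and kidney libraries overlapped.

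The 2 models with the DSL motif of Notch ligands were both higher in heart than in liver (against 29.6% of all genes). In heart minus kidney the deposited values gave them opposite directions. GOAT_ENSP00000254958 (11 matches, scaffold 611, 1506758 to 1539856, minus strand) had 5.08, 10.2 and 8.38 FPKM in heart, 3.37, 2.52 and 3.08 in liver and 12.9, 24.0 and 21.2 in kidney, and was lower in heart than in kidney (-1.20 ± 0.29, adjusted p = 0.00545). Under median ratio scaling this was -0.56 (adjusted p = 0.0784). GOAT_ENSP00000249749 (7 matches, scaffold 947, 5352 to 12627, minus strand) had 5.37, 14.3 and 6.87 FPKM in heart, 2.03, 1.01 and 2.05 in liver and 3.71, 2.83 and 3.82 in kidney, and was higher in heart than in kidney (1.05 ± 0.32, adjusted p = 0.0182). The first thus had its highest values in kidney and the second in heart. Whether the 2 differences differ from each other was not tested.

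Of the 5 models with the motifs of the LDL receptor family, 3 were tested and each had another order of tissues. GOAT_ENSBTAP00000017556, a protein of 4434 residues with 8 matches (scaffold 392, 1980063 to 2051049, plus strand), had 5.03, 8.11 and 6.74 FPKM in heart, 46.8, 59.2 and 41.3 in liver and 12.7, 34.6 and 26.0 in kidney. The liver libraries were all above the kidney libraries, and these all above the heart libraries. Mean liver FPKM was 7.42 times that of heart (log2 difference -2.72 ± 0.34, adjusted p = 0.000136) and 2.01 times that of kidney (1.07 ± 0.34, adjusted p = 0.0203). The call against kidney was lost without liver 2 (0.93, adjusted p = 0.0712) and without a filter on low values (1.07, adjusted p = 0.0556).

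GOAT_ENSP00000371532 (3 matches, scaffold 300, 5830439 to 5848229, minus strand) had 20.9, 14.6 and 17.3 FPKM in heart, 0.818, 0.315 and 0.955 in liver and 11.05, 11.9 and 16.9 in kidney. Its mean was 25.3 times as high in heart as in liver (3.46 ± 0.24, adjusted p = 2.21e-06) and 19.1 times as high in kidney as in liver, while heart and kidney overlapped. GOAT_ENSBTAP00000041521, its nearest relative in sequence at 41.0% identity, was elevated in heart at 1.76, 3.16 and 2.74 FPKM, against at most 1.46 in liver and 0.831 in kidney. GOAT_ENSBTAP00000005988 and GOAT_ENSBTAP00000053373 never exceeded 0.179 FPKM and were not tested. The latter shared up to 47.9% identity with GOAT_ENSBTAP00000017556, which reached 59.2 FPKM.

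The model with the Gla motif of vitamin K-dependent proteins was the most abundant member in any tissue. GOAT_ENSBTAP00000032310 (3 matches, 649 residues, scaffold 385, 172977 to 216799, plus strand) had 144, 81.1 and 77.2 FPKM in liver, 20.6, 15.8 and 15.7 in heart and 23.3, 20.9 and 7.85 in kidney. All liver libraries lay above all others, with a mean 5.81 times that of heart (log2 difference -2.42 ± 0.40, adjusted p = 0.000732). Liver exceeded kidney by 2.54 ± 0.40 (adjusted p = 0.000438), and heart and kidney overlapped (0.12 ± 0.40, adjusted p = 0.81).

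Of the 17 other models with calcium-binding starts, 13 were tested, and none passed as higher in liver than in heart, against 19.6% of all genes. The test was passed with the higher level in heart than in liver by 10 (against 29.6% of all genes) and in kidney than in liver by 11 (against 51.6%). Of the others, GOAT_ENSP00000426146 did not pass in liver minus kidney (-0.17 ± 0.29, adjusted p = 0.627) and GOAT_ENSP00000246006 was higher in liver than in kidney (0.80 ± 0.29, adjusted p = 0.0342) although the libraries of these tissues overlapped. Against kidney, 2 passed with the higher level in heart (against 17.9%) and 5 with the lower one (against 45.3%).

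A trio of these models resembled each other at 46.9 to 55.9% identity and shared a low level in liver. GOAT_ENSP00000267620 (4 matches, scaffold 165, 876279 to 963728, plus strand) had 21.6, 20.3 and 18.2 FPKM in heart, 3.84, 3.04 and 5.14 in liver and 45.5, 43.4 and 32.4 in kidney. The kidney mean was 10.1 times the liver mean (liver minus kidney -3.06 ± 0.22, adjusted p = 3.04e-06), and none of the 3 tissues overlapped. Heart minus kidney was -0.97 ± 0.22 (adjusted p = 0.00342), and -0.30 under median ratio scaling (adjusted p = 0.272). GOAT_ENSBTAP00000028604 (scaffold 811, 323433 to 329689, plus strand) had the same order, with 8.49, 10.9 and 7.87 FPKM in heart, 2.63, 3.86 and 3.36 in liver and 16.6, 42.7 and 20.2 in kidney. Kidney 2 stood above the other kidney libraries, and liver minus kidney was -2.58 ± 0.32 (adjusted p = 0.000119). GOAT_ENSBTAP00000023206 had 20.5, 22.3 and 15.9 FPKM in heart and 9.62, 22.0 and 17.5 in kidney, which overlapped, against at most 4.87 in liver.

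Of the 13 tested models of this kind, 2 were elevated in heart and 5 in kidney (against 14.5% and 34.2% of all genes). From these, 2 models outside the trio are described here. GOAT_ENSP00000416341 (4 matches, scaffold 665, 1416016 to 1795027, plus strand) was listed at 0 in all 3 heart libraries, had 0.0241, 0.0467 and 0.0250 FPKM in liver and 8.12, 6.63 and 7.83 in kidney. It too entered the test only through the tissue where it is high, and its values are a description. These 2 models, this one and GOAT_ENSP00000424571, are among the calls counted for kidney and for heart. goat_GLEAN_10015400 (9 matches, scaffold 133, 2213017 to 2324692, minus strand) was elevated in heart, with 23.6, 7.54 and 9.83 FPKM there, 0.703, 0.322 and 0.358 in liver and 2.98, 3.79 and 2.13 in kidney. Heart 1 was the highest of its libraries and the heart libraries had the widest spread of any tested member in heart (SD 0.80 on the log2 scale), yet all 3 lay above every other library. Heart exceeded liver by 3.18 ± 0.36 (adjusted p = 7.33e-05) and kidney by 1.75 ± 0.36 (adjusted p = 0.00234).

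Among the 24 models with none of these combinations 12 were tested. GOAT_ENSBTAP00000000752 (7 matches, 2027 residues, scaffold 356, 3854402 to 3925521, minus strand) had 42.0, 42.5 and 46.3 FPKM in kidney, 4.36, 26.6 and 12.7 in liver and 0.153, 0.268 and 0.0983 in heart. The kidney libraries lay close together, whereas the liver libraries differed more than those of any other tested member (SD 1.19 on the log2 scale). Kidney was 252 times as high as heart by the means (heart minus kidney -5.25 ± 0.48, adjusted p = 1.52e-05), and heart minus liver was -3.43 ± 0.48 (adjusted p = 0.000267). Liver minus kidney was -1.82 ± 0.48 (adjusted p = 0.00811), and -0.97 under median ratio scaling (adjusted p = 0.11).

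The largest heart excess over liver was that of GOAT_ENSP00000357133, a protein of 3079 residues with 3 matches (scaffold 408, 211287 to 726836, minus strand). It had 41.0, 43.7 and 40.4 FPKM in heart, 0.388, 1.03 and 1.04 in liver and 8.89, 18.0 and 11.7 in kidney. Its heart mean was 50.9 times its liver mean (4.57 ± 0.26, adjusted p = 6.4e-07) and 3.24 times its kidney mean (1.67 ± 0.26, adjusted p = 0.000472). It was also the most abundant member in heart. goat_GLEAN_10008763 (4 matches, scaffold 982, 1339868 to 1464557, plus strand) had the largest heart excess over kidney on the log2(FPKM + 1) scale. It had 26.4, 38.8 and 33.0 FPKM in heart, 13.6, 12.9 and 16.4 in liver and 6.33, 5.20 and 5.69 in kidney. Heart exceeded kidney by 2.31 ± 0.20 (adjusted p = 9.64e-06), and none of its tissues overlapped. Its heart mean was 5.71 times its kidney mean, below the 5.90 times of GOAT_ENSBTAP00000022815.

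GOAT_ENSBTAP00000022815 (9 matches, scaffold 566, 3060208 to 3210659, minus strand) was elevated in heart, at 11.3, 6.66 and 6.16 FPKM against 0.546, 0.840 and 0.415 in liver and 3.01, 0.476 and 0.610 in kidney. Kidney 1 stood above the other kidney libraries but below all heart libraries. Heart exceeded liver by 2.46 ± 0.38 (adjusted p = 0.000494) and kidney by 2.05 ± 0.38 (adjusted p = 0.00119). The 2 models most like it, at 45.6 to 49.3% identity, were GOAT_ENSBTAP00000014986 and GOAT_ENSBTAP00000027836, which were not tested and had their highest values in kidney, at 0.758 and 1.47 FPKM.

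A pair of these models was elevated in liver. GOAT_ENSBTAP00000004768 (6 matches, 3290 residues, scaffold 440, 151746 to 435447, plus strand) had 11.8, 6.06 and 4.63 FPKM in liver, 0.961, 0.610 and 0.338 in heart and 0.950, 0.633 and 0.368 in kidney. All liver libraries lay above all others. Heart minus liver was -2.30 ± 0.30 (adjusted p = 0.00019) and liver minus kidney 2.29 ± 0.30 (adjusted p = 0.000168). In each tissue the library numbered 1 was the highest and that numbered 3 the lowest.

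GOAT_ENSBTAP00000007896 (17 matches, 2555 residues, scaffold 310, 3088461 to 3263450, plus strand) was listed at 0 in all heart libraries and had 18.5, 8.41 and 6.04 FPKM in liver and 6.34, 4.85 and 3.02 in kidney. Liver and kidney overlapped, since liver 3 lay below kidney 1. Liver exceeded kidney by 0.97 ± 0.36 (adjusted p = 0.0394). Leaving out heart 1, 2 or 3, liver 1 or 2, or kidney 2 or 3 lost this call (adjusted p = 0.0529 to 0.135). The call was also lost without a filter on low values (adjusted p = 0.104). It was kept with animals as a replicate block (adjusted p = 0.0134) and under median ratio scaling (adjusted p = 0.0103). The model's differences from heart passed at -3.45 ± 0.36 for liver (adjusted p = 4.18e-05) and -2.48 ± 0.36 for kidney (adjusted p = 0.000303).

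**Figure D5:**
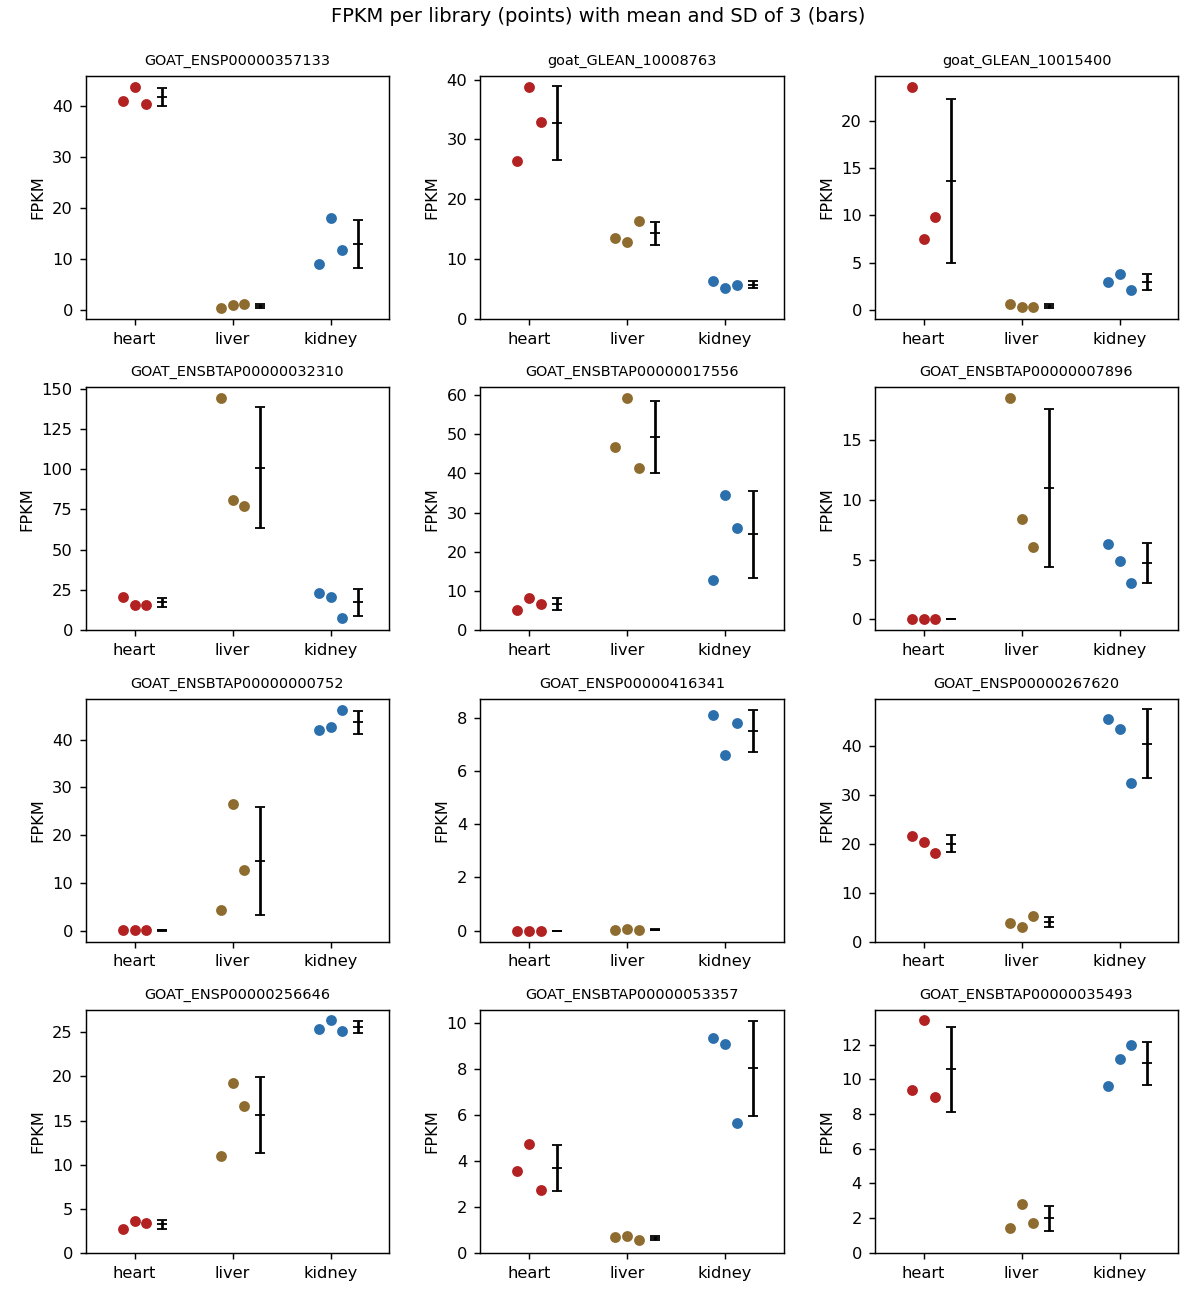
FPKM of 12 of the 18 named models in each of the 9 libraries, on linear axes. Each point is a library, coloured by tissue, and the bar is the mean of 3 libraries with its SD. GOAT_ENSBTAP00000032310 and GOAT_ENSBTAP00000017556 are highest in liver, GOAT_ENSP00000357133 in heart and GOAT_ENSBTAP00000000752 in kidney, and the points at 0 are values listed as 0.

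Close relatives in sequence stood at unlike levels in some groups and at closer levels in others, such as the trio described above. How often this holds was not counted, and no comparison with unrelated pairs was made. In the group of 4 with 40.1 to 60.1% identity, GOAT_ENSBTAP00000033855 had means of 5.88, 3.46 and 7.88 FPKM in heart, liver and kidney. GOAT_ENSP00000274473 had 0.141, 0.0311 and 2.32, GOAT_ENSBTAP00000036815 at most 0.0694 in any library, and goat_GLEAN_10020808 was listed at 0 throughout. In the group with the highest identities, 58.2 to 69.3%, GOAT_ENSP00000424226 had means of 0.380, 0.0751 and 0.527 FPKM, while GOAT_ENSP00000403954 and GOAT_ENSP00000373555 never exceeded 0.0948. The authors' method could split reads between such models, and at these identities the share of reads affected is not known from the files.

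In heart minus liver, where 29.6% of all genes passed as higher in heart and 19.6% as higher in liver, tested members with a hydrophobic stretch gave 10 and 4 such calls of 17, and those without it 16 and 2 of 20. In heart minus kidney, where 17.9% of all genes passed as higher in heart and 45.3% as higher in kidney, those with the stretch gave 2 and 7 calls, and those without it 6 and 6. The 25 tested members with a calcium-binding start gave 18 calls for heart and 3 for liver, with a median of 1.12, and the 12 without it gave 8 and 3, with a median of 0.81. The groups by motif were formed after the data were examined, and no test was made between them.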

How the data were processed

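RNA of 9 goat libraries (heart, liver and kidney, 3 each) was used. The authors extracted total RNA with TRIzol, made dUTP strand-specific Illumina libraries, mapped reads with TopHat to the goat genome CHIR_1.0 and quantified with Cufflinks 2.2.1, and the deposited values are log2(FPKM + 1), 1 column a library, without pooling. The labels list the build UMD3.1 for these samples as well, and the headers of the protein file, from which scaffold positions were taken, name no build. Heart columns were matched to samples by title, since their names differ from the sample descriptions. The study states that the goat heart libraries were deposited in another series too. Counts and depth are not given, so no count test or counting interval was possible.

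Members were found by motif in the deposited proteins. The members and lists were chosen with earlier results of these data known. Similar members were grouped with blastp 2.17.0 (expectation value 1e-10, identity of at least 40%, cover of at least 60%). In single-letter amino acids, with x for any residue and alternatives in brackets, the other motifs were D[IVLM][DN][EQ]C (calcium-binding start), YW[ST]D (beta-propeller), CxDxSDE (class A repeat), GxT[PA]L[HMI]xA (ankyrin), YxGxxCxxxCxxRxD (DSL) and RGD (integrin-binding), and a spaced pattern of glutamates and a cysteine for Gla. They match letters only and name no protein. The hydrophobic stretch is a window of 19 residues with a mean hydropathy of at least 1.6, past the first 40 residues. Genes above 0.5 FPKM in at least 3 of 9 libraries (13634) were tested with limma 3.58.1 in R 4.3.3 on the deposited log2 values, with 1 fit over the 3 tissues and a trend of variance on level, and p was adjusted by Benjamini and Hochberg's method over all genes of a comparison (threshold 0.05). SE is limma's moderated standard error and n is 3 libraries a tissue. This fit held no term for the animal, so its SE and p leave the pairing of tissues out. A fit with animals as a block is given as an alternative. On simulated data in which heart minus liver was set to a log2 difference of 2 in 200 of 13634 genes, 83.5% were recovered and 4.57% of calls were false. The simulated libraries were independent, without an effect of the animal, and no other gene differed between tissues. In the data 49.2% to 65.0% of genes passed in a comparison, so these 2 shares do not carry over to it. Median ratio scaling used the 11910 genes above 0 in every library.

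The named models (18) are, for each comparison, the 4 called members with the largest difference in either direction among those whose groups do not overlap, the 3 with the highest mean FPKM in each tissue and the 5 with the most matches. Models of the motif kinds, models in groups of like sequence and single models described as exceptions were named in addition, after their values were seen. Of the goat ids, 0 matched the reference table of gene names, which is of cattle. The planned lists by gene name (families, pathways, tissue and cell type markers) could therefore not be applied, and motif kinds took their place. Deviations from the tissue mean correlated between same-numbered libraries (r = 0.146 to 0.473 in all 9 pairs), and the study describes the tissues as taken from the same individuals, so the numbers were read as animals. Alternatives changed the pseudocount, the low-value filter, the scaling, the trend, the block, the minimum difference, the number of matches and the libraries. Cattle and sheep values were not used here.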

Additional observations from a re-analysis of the deposited data

How the results depend on the processing

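With animals as a replicate block, 32, 21 and 31 members passed in heart minus liver, heart minus kidney and liver minus kidney, as without it, against 56.5%, 69.3% and 70.9% of all genes (49.2%, 63.2% and 65.0% without it). Of the 32 calls between heart and liver, 31 were shared, and the block changed no other call counted here. No member called in the fit as reported was called in the opposite direction under any alternative. The study's filter, which asks that over 80% of libraries exceed 0.5 FPKM, tests fewer genes and left 21, 11 and 20 calls and 4, 2 and 6 elevated members in heart, liver and kidney. Elevated members in kidney were 3 under median ratio scaling, 4 under quantile normalization and 7 with a minimum log2 difference of 1. Those in heart were 4 with equal summed FPKM and 5 among models with at least 4 matches, and those in liver were 2 without a filter on low values. Leaving out single libraries gave 25 to 34, 19 to 22 and 27 to 30 calls, 5 to 9 elevated in heart (5 without heart 2), 2 to 4 in liver (2 without liver 2) and 9 to 11 in kidney. At 0.1 FPKM 39.0, 33.0 and 41.0 members were above the level in heart, liver and kidney. Without the 10 highest genes the share of summed FPKM was 0.0483% in heart and 0.0670% in kidney, and with at least 4 matches it was 0.0247%, 0.0251% and 0.0495% in heart, liver and kidney, as fewer models are summed. For the 18 models of the naming rule, 44 differences passed, and of 717 values under alternatives 694 kept direction and call, 22 lost the call, and 1 reversed, that of GOAT_ENSP00000256646 in liver minus kidney (0.14 under median ratio scaling, adjusted p = 0.525). The cause of these shifts was not tested. With 3 libraries a tissue and no depth, small differences of low models cannot be resolved.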
